A study of Mus musculus with 8 samples.

Results

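Cr2, Cd1d1, Cd1d2, Cd36, Myof, Tm6sf1 and Mzb1 are genes described as markers of marginal zone B cells of the mouse spleen, most of them for proteins of cell membranes. The product of Mzb1 lies in the endoplasmic reticulum, and Cd1d2 is listed by RefSeq as a transcribed pseudogene in C57BL/6J. The listed genes make 7 of the 18193 genes that probe sets of the array name singly. Every probe set annotated to exactly 1 of these genes was used, which gave 12 of the 45101 probe sets on the array, with at most 3 for a gene. Of the 12, 11 were bright enough to be tested, and at least 1 was tested for each gene. RNA came from splenic B cells of 12-week-old C57BL/6 mice, irf4-/- (Irf4 null, 4 arrays) and irf4+/+ littermates (wild type, 4 arrays), and the labels name no treatment. Non-B cells had been removed with magnetic beads, so marginal zone and follicular B cells were measured together and the members' place in one subset could not be checked on these arrays. The sources used here do not give the extent of the Irf4 deletion or the sex of the mice, nor whether each array held RNA of a separate mouse, so the p-values rest on a spread among arrays that may be partly technical.

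Marginal zone B cells lie at the border of the white pulp, where they meet antigens and lipids carried in blood, and their formation requires Notch2. They are recognised by high surface levels of the complement receptor CD21 and of CD1d, which presents lipids to natural killer T cells. Irf4 encodes a transcription factor of lymphocytes that plasma cells need. The comparison asks which of these markers differed between B cell preparations that lack Irf4 and those that have it. In RNA of a whole preparation, more cells of a subset and more RNA per cell cannot be told apart.

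In Irf4 null B cells 4 of the 7 genes rose: Cd1d1, Cd1d2, Myof and Tm6sf1. Their 6 called probe sets had log2 fold changes from 0.71 to 1.54. Without Cd1d2, whose wild-type signal was too dim for its fold to be exact, the means were 1.64 to 2.92 times those of wild type. The other 3 genes did not pass. Cr2, the gene of CD21, had a log2 fold change of 0.28, Mzb1 of 0.014 and the brightest Cd36 probe set of -1.07. Thus 6 of 11 tested member probe sets were called higher, against 2.01% of all 27022 probe sets tested, and 0 of 11 were called lower (limma, adjusted p under 0.05; 2 of them, both of Cd36, were lower at an unadjusted p under 0.05), against 1.51% of all, and 3.52% of all were called in either direction. The median log2 fold change was 0.71 over the 11 and 0.003 over all probe sets tested.

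**Figure D1:**
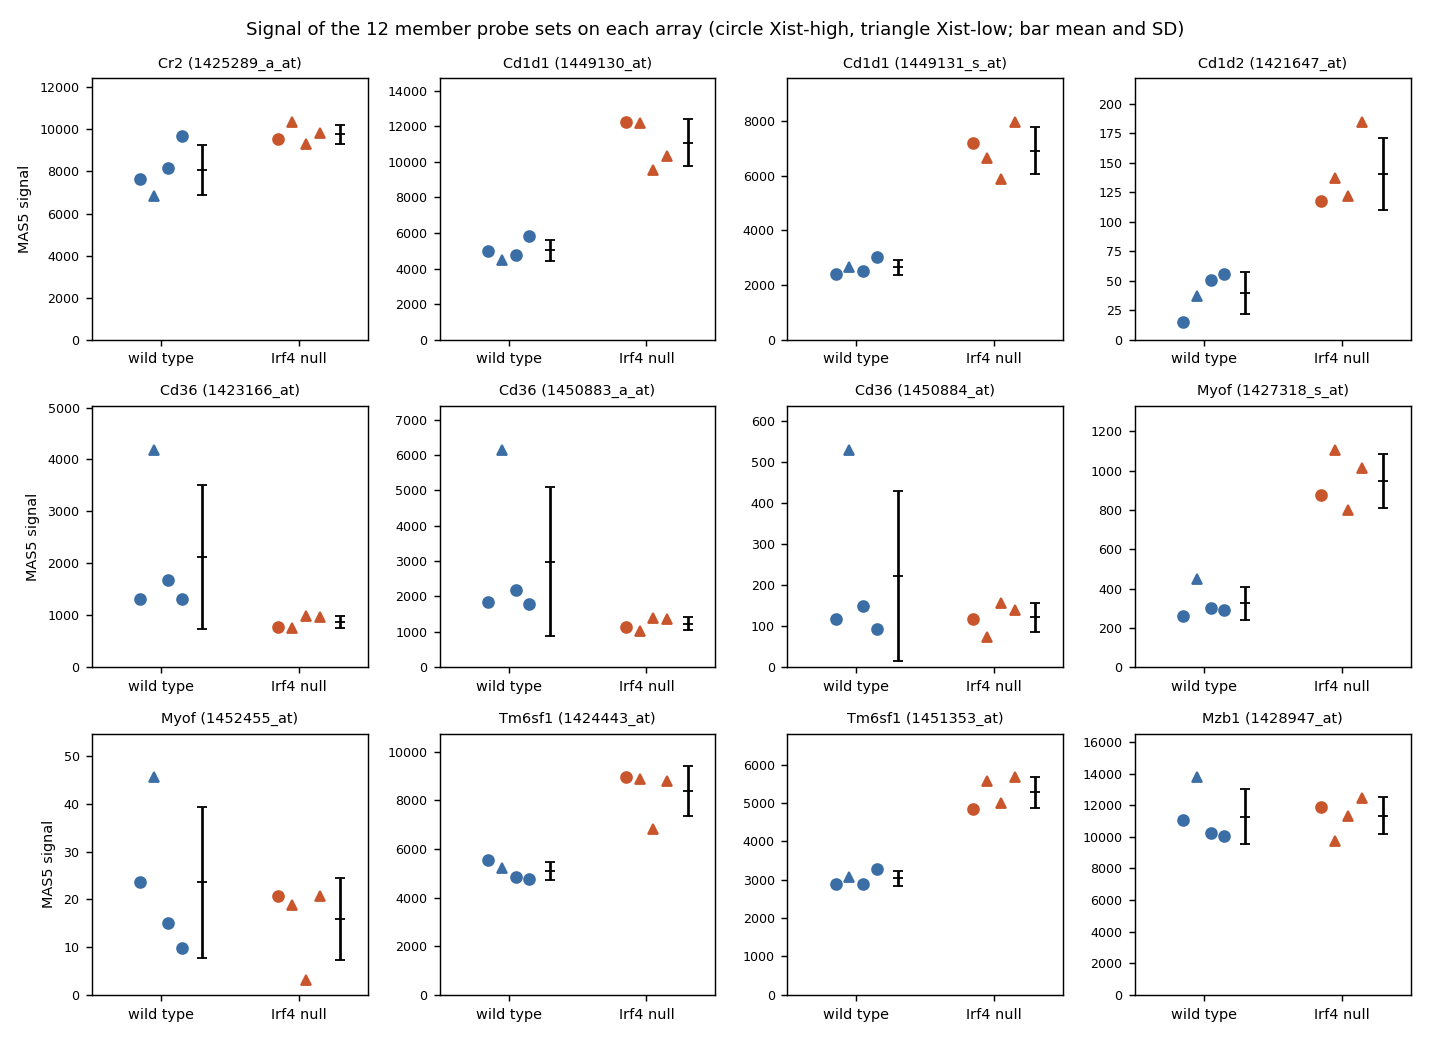
MAS5 signal (linear scale) on each array for the 12 member probe sets, with wild type in blue and Irf4 null in orange, circles for arrays with high Xist and triangles for arrays with low Xist, and bars for the mean and SD of 4 arrays. The groups do not overlap for Cd1d1, Cd1d2, Tm6sf1, the brighter Myof probe set and the 2 brighter Cd36 probe sets, and wild-type array 2 stands above the other arrays for Cd36.

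The targeted gene was lower in every Irf4 null preparation. The brighter Irf4 probe set read 1720 to 2341 in wild type and 244 to 315 in Irf4 null. Its log2 fold change was -2.76 ± 0.12 (SE; limma, adjusted p = 4.6e-06). Of the general B cell markers Cd79a, Cd79b, Ms4a1, Pax5 and Cd22, 0 of 5 passed (limma; 0 at an unadjusted p under 0.05), with Cd79b at -0.10 and Cd79a at -0.12. Arrays differed in a second way. Xist, made from the inactive X chromosome in female cells, had a signal of at least 17119 for wild-type arrays 1, 3, 4 and Irf4 null array 1 (Xist-high). Its signal was at most 94.8 for wild-type array 2 and Irf4 null arrays 2, 3, 4 (Xist-low). The mean log2 signal of 43 markers of macrophages, dendritic cells, neutrophils, T, NK, erythroid, platelet and endothelial cells, of 52 listed, was 7.93 to 8.31 on the Xist-high arrays and 8.85 to 9.49 on the Xist-low arrays. Of these 43 genes 3 rose, Prf1 of NK cells (1.33), Ppbp of platelets (0.81) and Vwf of endothelium (1.03), and 40 did not pass, while 15 had an unadjusted p under 0.05. The median log2 fold change of the 43 was 0.676, close to that of the members, and the part of these cells in the members' rise was not tested. Values within each Xist class are given for the members below without p-values, because 1 genotype has a single array in each class. These are Irf4 null array 1 in the Xist-high class and wild-type array 2 in the Xist-low class. Calls from fits within a class are counted only among the alternatives to the processing, where they are no replicate check.

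Promoter sequence is shown for 3 of the 7 genes. Cd1d1, Cd1d2 and Tm6sf1 had no entry in the promoter set used, and the promoter of Mzb1 is not reported here. Promoters are given because Notch signalling, which acts through the DNA-binding protein RBPJ, is needed for marginal zone B cells. Each run is the 250 bases before the start of transcription, 5′ to 3′ on the gene's strand, from RefSeq on GRCm38.p6. The positions are chr1:195176720-195176969 for Cr2, chr5:17835897-17836146 for Cd36 and chr19:38043578-38043827 for Myof, all on the minus strand. Capitals mark TGGGAA, the core motif of RBPJ.
Cr2: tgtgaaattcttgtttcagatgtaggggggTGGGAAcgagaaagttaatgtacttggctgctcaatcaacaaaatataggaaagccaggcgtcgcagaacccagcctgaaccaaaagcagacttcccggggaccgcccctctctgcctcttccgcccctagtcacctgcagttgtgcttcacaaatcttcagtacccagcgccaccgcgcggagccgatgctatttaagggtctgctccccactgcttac
Cd36: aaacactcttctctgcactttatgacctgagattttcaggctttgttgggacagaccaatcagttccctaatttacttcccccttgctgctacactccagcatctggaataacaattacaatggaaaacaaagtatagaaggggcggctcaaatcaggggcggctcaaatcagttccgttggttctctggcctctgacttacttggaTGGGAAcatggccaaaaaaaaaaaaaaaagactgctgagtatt
Myof: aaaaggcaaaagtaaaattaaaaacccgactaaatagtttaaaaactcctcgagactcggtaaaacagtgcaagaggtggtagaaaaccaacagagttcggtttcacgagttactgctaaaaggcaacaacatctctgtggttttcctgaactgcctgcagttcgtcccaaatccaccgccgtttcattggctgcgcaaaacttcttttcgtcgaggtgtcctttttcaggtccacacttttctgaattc
The motif was searched on both strands and began 220 bases before the start in Cr2 and 43 bases before it in Cd36, and these letters are not in the Myof window. It occurs in 21.6% of the 32851 RefSeq promoter windows of the same length. Searches on both strands for the composite element that Ets factors and IRF4 bind together (GGAA and GAAA parted by any 2 bases, in 2.3% of all windows), for the core of the interferon-stimulated response element (GAAA and GAAA parted by any 2 bases, 3.0%) and for the Ets motif GAGGAAGT (2.4%) found no match in these 3 windows. The E box CANNTG, found in 66.2% of all windows, had 3 matches in Cr2, 1 in Cd36 and 0 in Myof. A match is a description of letters, not a binding site.

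Cr2 encodes complement receptors 2 and 1 (CD21 and CD35) of B cells, which bind fragments of C3 on antigens. Its probe set gave 7625, 6855, 8151 and 9677 for wild-type arrays 1 to 4, then 9553, 10355, 9304 and 9830 for Irf4 null arrays 1 to 4, the order kept below. Wild-type array 4 lay among the Irf4 null values, and the other 3 wild-type arrays lay below them. The log2 fold change was 0.28 ± 0.10 with a 95% interval from 0.07 to 0.50, and it did not pass (limma, adjusted p = 0.157). Leaving out wild-type array 4 brought it past the threshold, at 0.37 (adjusted p = 0.0448). It was 0.18 within the Xist-high and 0.52 within the Xist-low arrays.

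Complement genes and membrane partners of CD21 were listed beside Cr2. Of 8 listed genes 5 were tested and 0 passed (limma; 1 at an unadjusted p under 0.05), with a median log2 fold change of -0.098. Cd59a, an inhibitor of the membrane attack complex, was at 0.79 ± 0.25 (adjusted p = 0.118), and Cd46 at -0.51 ± 0.30 (adjusted p = 0.428).

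Cd1d1 encodes CD1d, the lipid-presenting molecule by which marginal zone B cells are sorted. The brighter probe set gave 5004, 4480, 4756 and 5848 for the wild-type arrays and 12250, 12205, 9575 and 10346 for the Irf4 null arrays. The lowest Irf4 null array stood well above the highest wild-type array. The mean rose from 5022 ± 591 to 11094 ± 1346 (SD, n = 4 and 4), which is 1.14 ± 0.10 on the log2 scale (SE; limma, adjusted p = 0.000256). The second probe set, which by its design may also read related transcripts, gave 2411, 2647, 2515 and 3045 for the wild-type arrays and 7195, 6649, 5898 and 7975 for the Irf4 null arrays. It rose by 1.38 ± 0.10 (adjusted p = 7.4e-05). Within Xist-high arrays the changes were 1.24 and 1.44, and within Xist-low arrays 1.25 and 1.35.

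Cd1d2 is the near-identical neighbour of Cd1d1. Its probe set gave 15.3, 37.2, 50.3 and 55.7 for the wild-type arrays and 118, 137, 122 and 185 for the Irf4 null arrays. The groups did not overlap, but the wild-type mean of 39.7 ± 18.0 lies under the level of 42.9 at which dim probe sets were dropped, so the size of the fold is uncertain. The log2 fold change was 1.54 ± 0.28 (limma, adjusted p = 0.0126). It was 0.99 with 64 added to the signals in place of 16 and 1.92 with 1 added. Without Irf4 null array 4 it was 1.42 and did not pass (adjusted p = 0.0522). The Xist-high arrays alone gave 1.34 and the Xist-low arrays 1.60. The files hold no probe sequences, so hybridisation of Cd1d1 RNA to the Cd1d2 probe set, and the reverse, was not tested, and the 2 genes do not count as independent results.

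Genes for loading and trafficking of lipid antigens were listed beside Cd1d1. Of 12 listed 10 were tested and 0 passed (limma; 2 at an unadjusted p under 0.05), with a median of 0.086. Gla, the lysosomal alpha-galactosidase, was at 0.40 ± 0.16 (adjusted p = 0.235), and Gm2a, a lysosomal lipid transfer protein, at 0.19 ± 0.08 (adjusted p = 0.274).

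Myof encodes myoferlin, a membrane-anchored protein of the ferlin family with a part in membrane fusion and repair. The brighter probe set gave 262, 448, 299 and 289 for the wild-type arrays and 876, 1107, 798 and 1011 for the Irf4 null arrays. Wild-type array 2 was the highest of its group and still below every Irf4 null array. The mean rose from 324 ± 83.7 to 948 ± 138 (SD), or by 1.52 ± 0.17 on the log2 scale (SE; limma, adjusted p = 0.000708), close to the value for Cd1d2. The change was 1.58 within Xist-high arrays and 1.08 within Xist-low arrays. The dim probe set read 9.83 to 45.6 in wild type and 3.07 to 20.8 in Irf4 null. It was too dim to be tested, and with no filter on dim probe sets it was at -0.28 ± 0.32 (adjusted p = 0.799), so the rise of Myof rests on 1 of 2 probe sets. That brighter probe set has the same design as the second Cd1d1 probe set and may also read related transcripts.

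Of 12 listed ferlins, annexins and their partners 8 were tested. S100a10, the partner of annexin A2, fell by 0.93 ± 0.09 (limma, adjusted p = 0.000378), and 7 did not pass. Of the 8, 3 had an unadjusted p under 0.05 (limma). These were S100a10, Anxa6 at 0.55 (adjusted p = 0.0669) and Ehd1 at 0.59 (adjusted p = 0.123). The median was 0.24.

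Tm6sf1 encodes a protein that spans the membrane several times. Its brighter probe set gave 5560, 5221, 4834 and 4752 for the wild-type arrays and 8951, 8890, 6825 and 8790 for the Irf4 null arrays. Irf4 null array 3 lay apart from the other 3 arrays of its group, and above every wild-type array. The log2 fold change was 0.71 ± 0.10 (limma, adjusted p = 0.00268). The second probe set gave 2896, 3075, 2883 and 3278 for the wild-type arrays and 4853, 5571, 4997 and 5671 for the Irf4 null arrays, and rose by 0.79 ± 0.08 (adjusted p = 0.000378). Within Xist-high arrays the 2 probe sets were at 0.83 and 0.68, and within Xist-low arrays at 0.63 and 0.81. Of the related proteins Tm6sf2, Tmem97, Ebp and Ebpl, 3 were tested and 0 passed (limma; 1 at an unadjusted p under 0.05), with Ebpl at 0.24 ± 0.08 (adjusted p = 0.162) and Ebp at 0.12 ± 0.08 (adjusted p = 0.517).

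**Figure D2:**
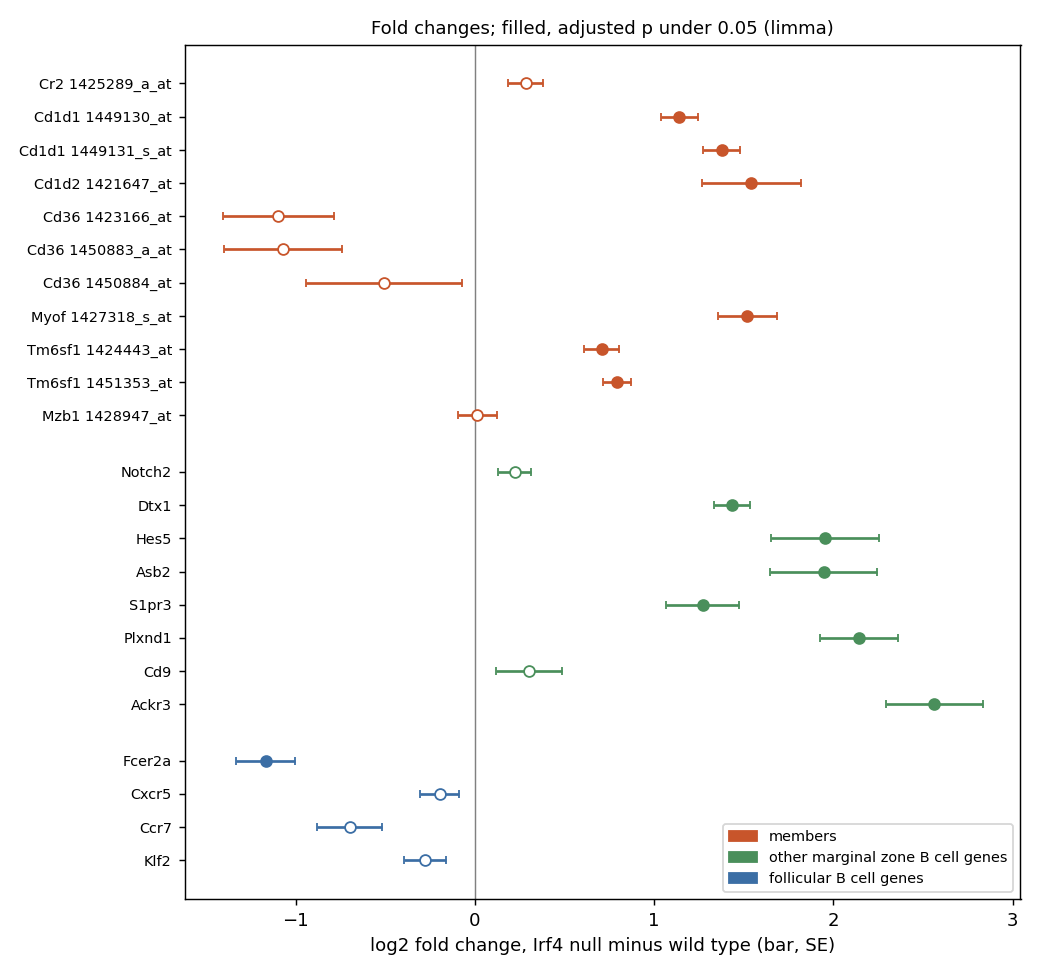
Log2 fold change (Irf4 null minus wild type, horizontal axis, with SE) of the 11 tested member probe sets, of 8 other marginal zone B cell genes and of 4 follicular B cell genes; filled points had an adjusted p under 0.05. Cd1d1, Cd1d2, Myof and Tm6sf1 lie to the right of 0 with 6 of the other marginal zone genes, while the Cd36 points lie to the left.

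Cd36 encodes a scavenger receptor that takes up oxidised lipoproteins and fatty acids, and is also made by macrophages, platelets and endothelium. Its brightest probe set gave 1836, 6150, 2175 and 1785 for the wild-type arrays and 1126, 1020, 1389 and 1369 for the Irf4 null arrays. Every Irf4 null array was below every wild-type array, and wild-type array 2 was far above the rest. The log2 fold change was -1.07 ± 0.33, with a 95% interval from -1.80 to -0.35, and did not pass (limma, adjusted p = 0.113). The second probe set separated the groups the same way, with 1305 to 4191 in wild type and 752 to 980 in Irf4 null, at -1.10 ± 0.31 (adjusted p = 0.0874). The third and dimmest probe set overlapped, with 93.1 to 530 in wild type and 74.3 to 156 in Irf4 null, at -0.51 ± 0.44 (adjusted p = 0.62). For all 11 tested member probe sets, 8 had groups that did not overlap, 6 upward and 2 downward, against 10.8% of all probe sets tested in either direction.

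The call for Cd36 changed with the handling of wild-type array 2 and of Xist class. Without that array the 2 brighter probe sets were lower by a smaller amount and both passed, at -0.66 (adjusted p = 0.00988) and -0.71 (adjusted p = 0.00849), while the dimmest was at -0.002 (adjusted p = 0.998), against -0.51 with it. With Xist class as a term in the fit the 2 brighter probe sets fell by 1.53 (adjusted p = 0.0111) and 1.54 (adjusted p = 0.00675). The dimmest was at -1.02 in that fit and did not pass (adjusted p = 0.268). In that fit 2 of 11 member probe sets were called lower, against 0.947% of all, and the same 6 as before were called higher, against 1.41% of all. From the brightest to the dimmest, the 3 probe sets were at -0.76, -0.86 and -0.014 within Xist-high arrays. Within Xist-low arrays, where wild-type array 2 stands alone for wild type, they were at -2.29, -2.21 and -2.03. The fit with the Xist term weighs both classes equally, so its larger fall and its calls rest in part on that array. The interaction of genotype with Xist class did not pass for the brightest Cd36 probe set (unadjusted p = 0.000178, adjusted p = 0.299) or any other member probe set, and for 0 of all 27022 probe sets.

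Markers of other cells on these arrays are given beside Cd36. Macrophage and monocyte markers (9 of 11 tested, 0 passed; 2 at an unadjusted p under 0.05) had a mean log2 signal of 10.09 on wild-type array 2, 8.56 to 8.68 on the other wild-type arrays, 8.47 on Irf4 null array 1 and 9.43 to 9.84 on Irf4 null arrays 2, 3 and 4. Single markers differed: Csf1r, of the macrophage growth factor receptor, read 6142 to 7820 on Irf4 null arrays 2, 3 and 4 and 2085 to 2740 on wild-type arrays 1, 3 and 4, while C1qa, of complement C1q, read 108 to 323 and 143 to 191 on the same arrays. The mean of 5 plasma cell genes was 11.68 on wild-type array 2, 10.44 to 10.67 on the other wild-type arrays and 7.44 to 7.75 on the Irf4 null arrays. Jchain, of the antibody joining chain, read 12829 on wild-type array 2 and 2222 to 2767 on the other wild-type arrays. Prdm1, of the plasma cell regulator Blimp-1, read 878 against 168 to 191, and 140 to 242 on the Irf4 null arrays. Sdc1, of the same list, went the other way, with 198 on wild-type array 2 and 345 to 611 on the other wild-type arrays. The part of macrophages and plasma cells in the Cd36 values was not tested. With the mean over those 43 other-cell genes in the fit as a covariate, the brighter Cd36 probe sets were both at -1.66 (adjusted p = 0.012 and 0.00696). The dimmest was at -1.19 and did not pass (adjusted p = 0.228).

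**Figure D3:**
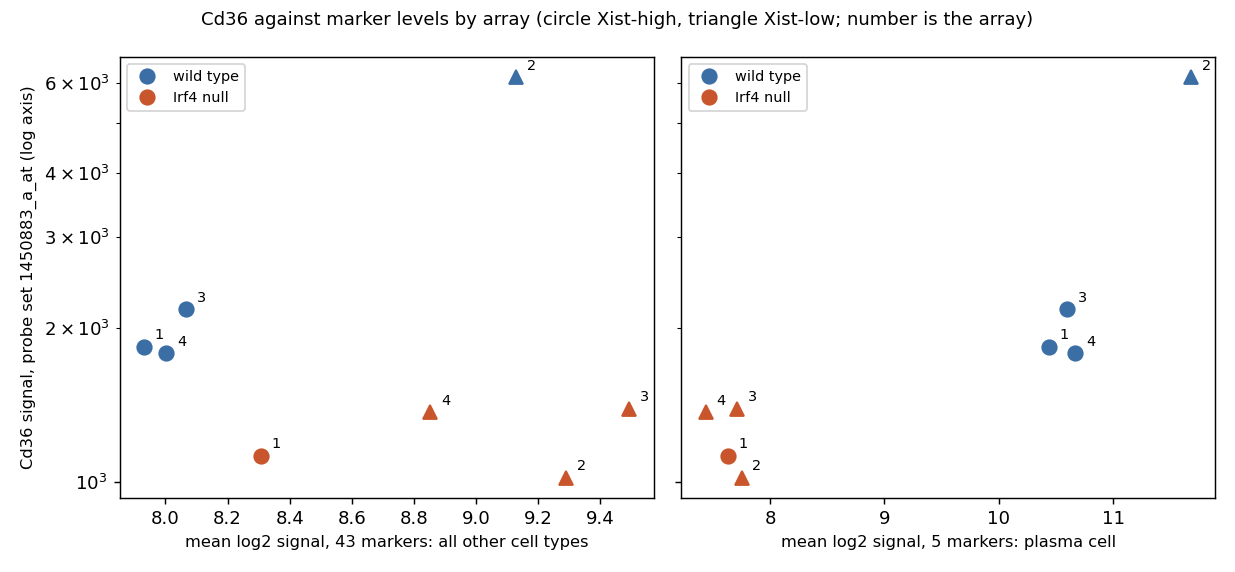
Signal of the brightest Cd36 probe set (log axis) on each of 8 arrays against the mean log2 signal of 43 markers of other cell types (left) and of 5 plasma cell genes (right), with wild type in blue and Irf4 null in orange. Wild-type array 2 is highest in Cd36 and in the mean of the plasma cell genes, and Irf4 null arrays 2 to 4 lie to the lower right on the left plot.

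Relatives of Cd36 and genes of fatty acid uptake were listed beside it. Of 13 listed 11 were tested and 0 passed (limma; 0 at an unadjusted p under 0.05), with a median of 0.17. Tlr6, a partner of CD36 at the cell surface, was at 0.30 ± 0.15 (adjusted p = 0.352), and Cpt1a, of mitochondrial fatty acid import, at -0.26 ± 0.18 (adjusted p = 0.538).

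Mzb1 encodes a protein of the endoplasmic reticulum that helps assemble and secrete IgM, named for its level in marginal zone and B-1 B cells and also high in plasma cells. It gave 11033, 13769, 10231 and 10071 for the wild-type arrays and 11864, 9748, 11317 and 12432 for the Irf4 null arrays. The groups overlapped over most of their range, and wild-type array 2 was again the highest. The log2 fold change was 0.014 ± 0.11, with a 95% interval from -0.23 to 0.25 (limma, adjusted p = 0.968). The Xist-high arrays alone gave 0.18 and the Xist-low arrays -0.31, the ends of its range under all alternatives tried.

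Of 10 listed partners of MZB1 and genes of immunoglobulin folding, Jchain fell from 5064 to 43.6, near the level of dim probe sets, so the size of its log2 fold change of -6.00 ± 0.47 is uncertain (limma, adjusted p = 8.0e-05). The disulphide isomerase gene Pdia4 rose by 0.75 ± 0.13 (adjusted p = 0.0106), and 8 did not pass, among them Hsp90b1, of the chaperone that works with MZB1, at 0.075 ± 0.11. Of 5 plasma cell genes 3 fell, Igha from 6531 to 34.4, Jchain as above and Sdc1 from 410 to 47.6. Of 4 B-1 cell genes tested 0 passed (limma; 3 at an unadjusted p under 0.05), among them Zbtb32 at 0.77 (adjusted p = 0.0888). Spn, of the sialoprotein CD43, was at 0.87 (adjusted p = 0.114). The mean Mzb1 signal was 11276 ± 1715 in wild type and 11340 ± 1155 in Irf4 null (SD), on arrays where Igha and Jchain were far below their wild-type level.

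Whether members changed by different amounts was tested from the difference of their log2 signals on each array, with the brightest tested probe set of each. Of 21 pairs, 14 differed with no overlap between genotypes. Each of these had an exact two-sided permutation p of 0.0286, the smallest that 4 arrays against 4 allow, and 0.0429 after Benjamini-Hochberg adjustment over the 21 pairs. Pairs at that smallest p pass or fail the adjustment together, and pairs that share a member are not independent. Cd1d1 rose more than Cr2 by 0.86 and more than Mzb1 by 1.13 on the log2 scale. Myof rose more than Cr2 by 1.24, more than Mzb1 by 1.51 and more than Tm6sf1 by 0.81. Tm6sf1 changed more than Mzb1 by 0.69, while its difference from Cr2, 0.43, did not pass (exact p = 0.0571, adjusted p = 0.0706). Cd36 differed from each of the other 6 members, from 1.09 against Mzb1 to 2.61 against Cd1d2. Cr2 and Mzb1 were not separated (0.27, exact p = 0.343, adjusted p = 0.36), nor were Cd1d1, Cd1d2 and Myof among themselves. Without any 1 of the Irf4 null arrays 10 or 11 pairs had an unadjusted exact p under 0.05, and 0 passed after adjustment. At that number of pairs the lowest adjusted exact p was 0.06 or 0.0545, so all missed the threshold together. A pair with no overlap stays without overlap when an array is left out, though its exact p can be larger.

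**Figure D4:**
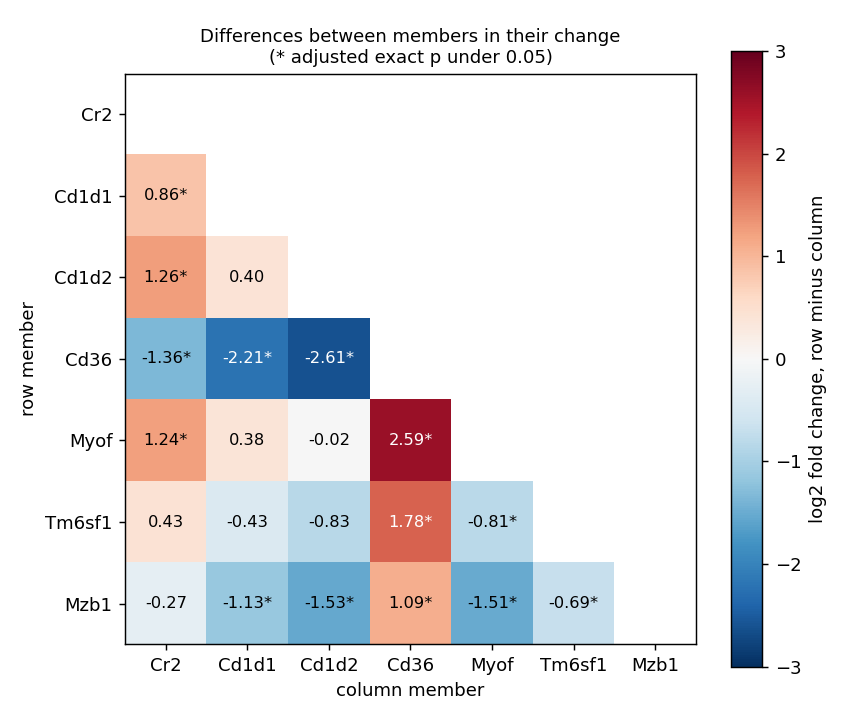
Difference in log2 fold change between members, row minus column, for 21 pairs; stars mark an adjusted exact permutation p under 0.05. Cd36 differs from every other member, and Mzb1 and Cr2 from Cd1d1, Cd1d2 and Myof.

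Most of the other listed genes of marginal zone B cells moved with the 4 genes that rose. Of 8 listed, 6 rose and 0 fell, against 2.01% of all probe sets tested called higher and 1.51% called lower. The median of the 8 was 1.69 on the log2 scale. Notch2, at 0.22 (limma, adjusted p = 0.244), and Cd9, at 0.30 (adjusted p = 0.46), did not pass. Ackr3, an atypical chemokine receptor, rose by 2.56 ± 0.27, the semaphorin receptor gene Plxnd1 by 2.14 ± 0.22, and the Notch targets Asb2 and Dtx1 by 1.94 ± 0.30 and 1.44 ± 0.10 (limma, adjusted p from 4.0e-05 to 0.00516). Of 4 follicular B cell genes tested, Fcer2a, of the IgE receptor CD23, fell by 1.17 ± 0.17 (adjusted p = 0.003) and 3 did not pass, with a median of -0.49. These lists were drawn up with earlier results of the same arrays known and are not independent evidence of direction.

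The genes whose signal followed each member most closely over the 8 arrays were found by Pearson's r of log2 signals among 11802 genes, as a description of arrays that share genotype and cell purity. For Cd1d1 they were Dusp16 (r = 0.993), Cipc (0.990) and Hps4 (0.988), and all 3 rose, by 1.12, 0.63 and 0.41. For Tm6sf1 they were Ube2r2 (0.995), Mreg (0.981) and Mdn1 (0.979), which rose by 0.42, 0.92 and 0.59. Myof was followed by the interferon-inducible Gbp7 (0.990), Pld4 (0.987) and Slc12a5 (0.987), which rose by 1.47, 0.59 and 2.70. Cd1d2 was followed by Flacc1 (0.983), which rose by 2.90, and by Zfyve28 (0.976) and Iqcc (0.973), which did not pass. Nearest to Cr2 were St8sia2 (0.975), Atpsckmt (0.962) and Asic4 (0.961), nearest to Cd36 were Atf6 (0.964), Upb1 (0.963) and Mybl1 (0.962), and nearest to Mzb1 were Hsd17b4 (0.960), Apoe (0.943) and Selenof (0.940), and none of these 9 passed.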

How the data were processed

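Total RNA (6 µg) of each of 8 splenic B cell samples was labelled with biotin for 1 Affymetrix mouse array, per the labels' protocols. The deposited values are linear intensities for which the submitters' processing notes name MAS5 as the authors' software, and the sources used here give neither its version nor its scaling target. Every array had a trimmed mean intensity of 500.003 (2% removed at each end), so no further normalization was applied. Without detection calls, low signals may be background. Array correlations were 0.960 to 0.982, and no arrays held identical values.

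Of 45101 probe sets 34958 have 1 gene symbol in the platform annotation, 932 have several and 9211 are unnamed here; 34754 matched RefSeq (GRCm38.p6) by gene, used for names. After 64 control probe sets were removed, log2(signal + 16) was computed, which shrinks folds of dim probe sets, and the lowest 40% by mean log2 signal (up to a signal of 42.9) were dropped, leaving 27022. The genotypes were tested in limma 3.58.1 (R 4.3.3) by eBayes with a variance trend, and p-values were adjusted by Benjamini-Hochberg across all 27022, at 0.05. Fold changes give Irf4 null relative to wild type. The fit was tested on simulated data. Pairs of members were compared with exact permutation tests over 70 splits. Arrays with an Xist signal over 1000 were called Xist-high. Figures used matplotlib 3.10.9.

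Members, lists and tests were chosen with earlier results of these data known. Named were Irf4, every member probe set, from each list up to 4 called genes with the smallest adjusted p or 2 genes where none was called, and 3 genes closest to each member. Prdm1, Csf1r, C1qa, Hsp90b1, Anxa6, Ehd1, Notch2, Cd9 and the names of tested B cell genes fall outside this rule. They were chosen after their values were seen. Lists of single other cell types that had no call are given within their total. Lists used 1 probe set per gene, the brightest.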

Additional observations from a re-analysis of the deposited data

Results flagged for a closer look

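Of 28 sets of 4 arrays checked (12 member and 2 Irf4 probe sets in each genotype), 5 held an array whose gap to the nearest other array took up most of the range (Dixon's test at 95%), where chance gives about 1 in 20. Wild-type array 2 stood above its group for all 3 Cd36 probe sets: it read 6150 against 1785 to 2175 for the brightest, 4191 against 1305 to 1671 for the second, and 530 against 93.1 to 149 for the dimmest. The 3 share a gene and an array and are 1 observation. Irf4 null array 3 stood below its group for Tm6sf1, at 6825 against 8790 to 8951 for the brighter probe set, while the second did not set it apart. Irf4 null array 3 was also low for the dim Myof probe set, at 3.1 against 18.8 to 20.8, where values are near background.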

How the results depend on the processing

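Each of 22 alternatives kept the direction of every called member. Both Cd1d1 probe sets passed under all 22 (1.08 to 1.27 and 1.31 to 1.45), while Myof and both Tm6sf1 probe sets lost their call within Xist-low arrays and Cd1d2 under 4 alternatives, with the values given above and, with the covariate for other cell types, 1.51 (adjusted p = 0.0596). Within each Xist class 1 genotype has 1 array, assumed to vary like the others, so these counts are no replicate check. The count of member probe sets higher was 2 within Xist-low arrays and 5 to 7 with an array left out. The count lower was 2 with the Xist-high term, with the covariate and within either Xist class, and 0 to 2 with an array left out, reaching 2 without wild-type array 2. The threshold of 0.01 left 5 higher. Over all probe sets 950 were called, against 1746 with array weights, 555 with no variance trend, 527 with the covariate, 322 within Xist-high arrays, 117 within Xist-low arrays, 330 at a threshold of 0.01, and 466 to 2172 with an array left out, the highest without wild-type array 2. Pairs of members past the threshold numbered 14, and 0 to 16 with an array left out, an alternative chosen after seeing the data together with other pseudocounts, which gave 14 and 15; with all probe sets of a member averaged it was 13. The count of pairs passing follows from how many reach the smallest possible exact p. The cause of the changes in the other counts was not tested. With the replicate number as a block 1168 were called and no member's call changed. Deviations of same-numbered arrays correlated at 0.237, 0.277, -0.030 and -0.081. These values do not settle whether the numbers pair the arrays, and the labels state no pairing. The number of arrays and the lack of detection calls limit what the dim probe sets of Cd1d2, Cd36 and Myof can show.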

Other observations

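The members also varied within a genotype, on values with the genotype means removed and with no test, over 8 arrays that share cell purity. Cd36 and Mzb1 went together (r = 0.839), and Cr2 went against both (-0.744 with Cd36 and -0.766 with Mzb1). Wild-type array 2 had the highest Cd36 and Mzb1 signals of the 8 arrays and the lowest Cr2 signal. Cd1d1 and Myof, which rose together between genotypes, were at r = -0.149 within genotypes.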
